A study of Tachycineta bicolor and Sialia sialis and Hirundo rustica with 121 samples.

Results

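NR3C1, the glucocorticoid receptor, and CRH, the peptide corticotropin-releasing hormone, were followed across the birds of a comparative brain study. They are 2 of the 10672 genes of the deposited count table and were taken from it by their symbols, with earlier results of these data known. Both had reads in each of the 61 females and 60 males sampled, with 100 to 1025 counts per bird for NR3C1 and 9 to 210 for CRH, and both passed the filter on low counts in every comparison described here.

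Glucocorticoids act on vertebrate brains through a receptor pair. NR3C1 is the lower-affinity receptor, a transcription factor that is held by chaperones until it binds hormone, and NR3C2, the mineralocorticoid receptor, binds the same hormones with higher affinity. CRH starts the hormonal stress response when it is released from the hypothalamus, and in the forebrain it also acts locally as a peptide transmitter through the receptors CRHR1 and CRHR2. In mammals, glucocorticoids reaching the hypothalamus lower CRH transcription through NR3C1, whereas in the amygdala and the bed nucleus of the stria terminalis they can raise it.

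The study asked how nesting strategy relates to behaviour, hormones and brain gene expression, and RNA sequencing was done on the ventromedial telencephalon, a forebrain region, of adults of 10 songbird species. Each of 5 families gave 1 obligate cavity nester, which breeds only in cavities, and 1 less obligate species. The birds came from the Midwestern United States and were taken while territories were set up and nests built, before laying. Each species was represented by 6 females and 6 males, except for 7 females in Tree Swallows. In the Hirundinidae, Tree Swallows (obligate) were set against Barn Swallows (open cup). In the Parulidae, Prothonotary Warblers (obligate) were set against Yellow Warblers (open cup). In the Passeridae, Eurasian Tree Sparrows (obligate) were set against House Sparrows (facultative cavity nesters). In the Troglodytidae, House Wrens (obligate) were set against Carolina Wrens (facultative), and in the Turdidae, Eastern Bluebirds (obligate) were set against American Robins (open cup). No hormone level, treatment or sampling batch is given in the labels, and the nesting strategy of a family's obligate nester cannot be told apart from any other difference between its 2 species.

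Total counts per bird ran from 4526413 to 7549296, with a median of 5861243. Levels are given as counts scaled to the library total (CPM) and adjusted by TMM, a method that aligns the libraries on genes whose level does not stand out. CPM is not corrected for gene length, so the levels of NR3C1 and CRH are not compared with each other. All birds were counted against 1 set of genes headed as zebra finch proteins, so a difference between species includes any difference in how well their reads match that set, whereas comparisons of sexes within a species are free of it. All 10 neuronal markers listed had reads in the libraries, with a summed level of 4919 to 8960 CPM per bird. Of 16 listed hypothalamic and preoptic markers 7 were present, with a summed level of 25.0 to 244 CPM. In bulk tissue, fewer cells of a type and less RNA per cell cannot be told apart.

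Some libraries stood apart. The lowest median correlations with the other birds of their own species and sex were 0.860 for Eastern Bluebird male 12, 0.881 for House Sparrow female 3, 0.893 for Barn Swallow female 4 and 0.896 for Barn Swallow female 3. The sex label was checked with CHD1W, a gene of the W chromosome that birds carry in females. It was at 21.0 to 99.7 CPM in 60 birds labelled female and at 0 to 18.4 CPM in 59 labelled male, and it contradicted the label in a pair of Carolina Wrens, at 8.37 CPM in female 1 and 67.7 CPM in male 3. All 6 libraries were kept under their labels, and results that change without them are given with and without them.

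NR3C1 was lowest in House Wrens and Eastern Bluebirds, which are both obligate nesters. House Wrens averaged 21.3 ± 2.405 CPM (SD, n = 12) and Eastern Bluebirds 28.8 ± 7.18 CPM (n = 12). The other 8 species lay between 48.4 ± 8.28 CPM in Carolina Wrens (n = 12) and 72.4 ± 40.8 CPM in Barn Swallows (n = 12). Between these came Yellow Warblers at 66.7 ± 15.0, Tree Swallows at 59.3 ± 18.6 (n = 13), House Sparrows at 57.1 ± 17.1, American Robins at 53.3 ± 11.5, Prothonotary Warblers at 52.8 ± 15.3 and Eurasian Tree Sparrows at 51.8 ± 12.4 CPM. Of the 9 pairs of neighbours in this order, 2 differed by more than the larger SD of the pair, namely Carolina Wrens and Eastern Bluebirds, and Eastern Bluebirds and House Wrens. Between Barn Swallows and Carolina Wrens, no neighbouring pair differed by more than that.

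**Figure D1:**
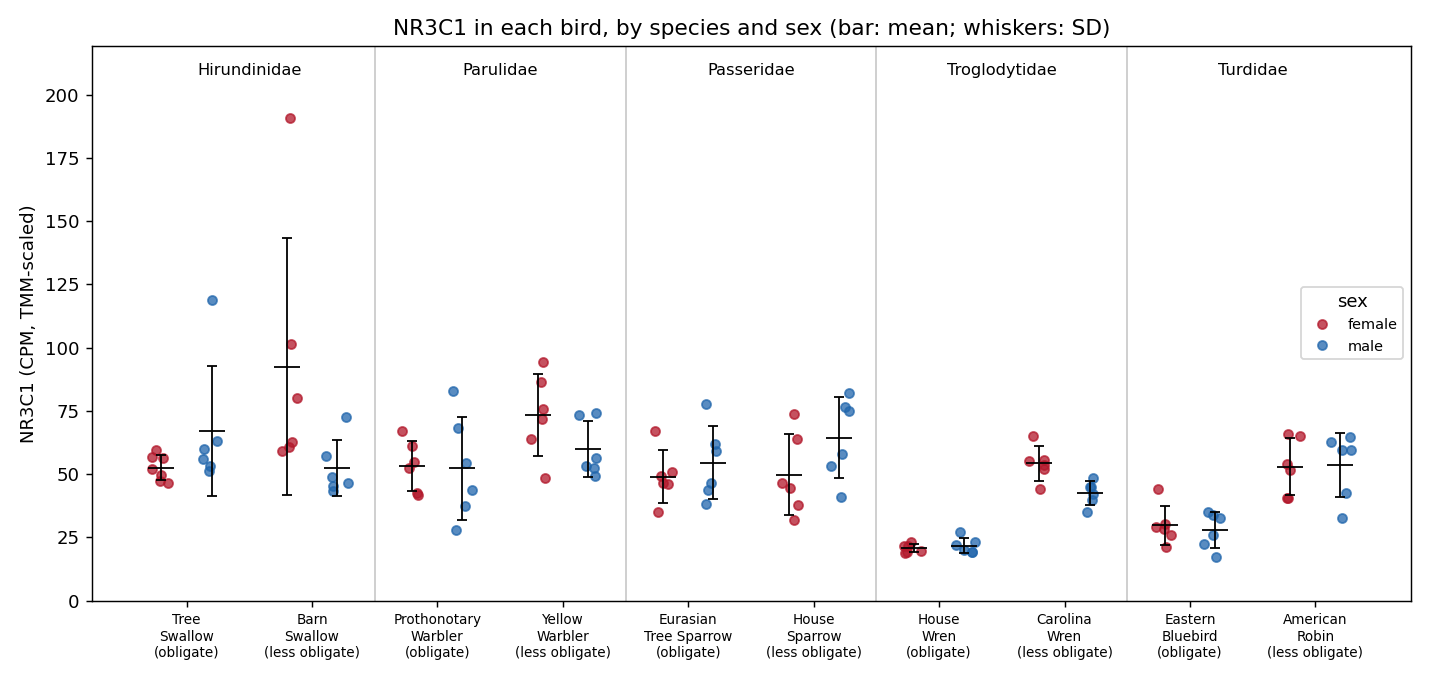
NR3C1 in every bird (points, TMM-scaled CPM) by species and labelled sex, with the obligate nester of each family on the left, bars for the mean and whiskers for 1 SD. The House Wrens lie at 19.0 to 27.1 CPM, below every Carolina Wren, and 1 Barn Swallow female stands at 191 CPM.

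The largest and tightest difference was between the wrens. NR3C1 in House Wren females ran from 19.0 to 23.4 CPM with a median of 20.7, and in Carolina Wren females from 44.0 to 65.3 with a median of 54.5. In males the values were 19.1 to 27.1 with a median of 21.0 in House Wrens and 35.2 to 48.6 with a median of 43.5 in Carolina Wrens. Every House Wren was below every Carolina Wren, in both sexes and over all 24 birds. Birds of the 2 wren species do not overlap for 17.6% of all genes (27.9% among females and 28.4% among males), and 26.3% of genes were lower in House Wrens past the threshold (an adjusted p under 0.05, Benjamini-Hochberg over all genes, here and below). With both sexes in the fit, NR3C1 was 2.20-fold lower in House Wrens, a log2 difference of -1.14 ± 0.09 (SE, 95% CI -1.32 to -0.96, edgeR quasi-likelihood test, adjusted p = 1.64e-11). It was -1.37 ± 0.11 in females (adjusted p = 9.14e-11 by the same test) and -0.91 ± 0.11 in males (adjusted p = 1.20e-07). The shares of all genes lower in House Wrens were 23.6% in females and 21.2% in males. Without the libraries labelled Carolina Wren female 1 and male 3, these differences were -1.37 and -0.94. Beside the differences that passed, marker lists with at least 2 more members called in one direction than in the other, over both sexes, are given. Markers of oligodendrocytes, the myelin-forming cells, summed to 255 to 577 CPM in House Wrens (median 411) against 486 to 1186 CPM in Carolina Wrens (median 837), over 4 of 9 listed markers of which 2 were lower in House Wrens and none higher. Markers of telencephalon and subpallium, 4 lower and none higher of 11, summed to 343 to 635 CPM in House Wrens (median 446) against 423 to 738 CPM (median 561). Over both sexes, as for these markers, 56.9% of all genes passed in either direction. Neuronal markers were 4 lower and 2 higher of 10, and blood cell markers 2 higher and none lower of 5. The part of these markers in the result was not tested.

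NR3C1 was also lower in Eastern Bluebirds than in American Robins, in both sexes. Eastern Bluebird females ran from 21.1 to 44.0 CPM with a median of 28.7, and American Robin females from 40.5 to 66.0 with a median of 52.8. Males ran from 17.2 to 34.9 with a median of 29.3 in Eastern Bluebirds and from 32.8 to 64.5 with a median of 59.5 in American Robins. The bulk of the 2 species was apart, and the groups overlapped only at the edge, from 40.5 to 44.0 CPM in females and from 32.8 to 34.9 CPM in males. The log2 difference was -0.88 ± 0.14 (95% CI -1.17 to -0.60, edgeR adjusted p = 3.84e-06), or 1.85-fold, against 27.7% of all genes lower in Eastern Bluebirds. Females gave -0.83 ± 0.20 (adjusted p = 0.00129, with 21.5% of genes lower) and males -0.94 ± 0.20 (edgeR adjusted p = 0.000390, with 21.6% lower). All 5 measured blood cell markers, of 9 listed, were lower in Eastern Bluebirds, with summed levels of 259 to 1543 CPM (median 561) against 355 to 8902 (median 1606) in American Robins. Over both sexes, as for these markers, 56.3% of all genes passed in either direction. Microglial markers were 3 lower and 1 higher of 4, and those of endothelial and mural cells 2 lower and none higher of 7. Those of hypothalamus and preoptic area were 2 lower and none higher of 7, and those of neurons 4 higher and 2 lower of 10. The part of these markers in the result was not tested.

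In the swallows NR3C1 was lower in the obligate nester among females and did not pass the test among males. NR3C1 in Tree Swallow females was at 46.6 to 59.6 CPM with a median of 52.1 (n = 7), and in Barn Swallow females at 59.0 to 191 with a median of 71.4. Tree Swallow males lay at 51.4 to 119 CPM with a median of 58.2, and Barn Swallow males at 43.4 to 72.6 with a median of 47.6. Females of the 2 species overlapped by less than 1 CPM, and males broadly. The difference between females was -0.82 ± 0.23 (edgeR adjusted p = 0.00373), where 24.4% of all genes were lower in Tree Swallow females. Without Barn Swallow female 7, the bird at 191 CPM, it was -0.48 (adjusted p = 0.0327 in the edgeR fit without it). Males gave +0.35 ± 0.24 (95% CI -0.13 to 0.84, edgeR adjusted p = 0.259), and +0.11 (adjusted p = 0.739 in the edgeR fit) without Tree Swallow male 5, the bird at 119 CPM. Over both sexes the difference was -0.21 ± 0.19 (95% CI -0.61 to 0.19, edgeR adjusted p = 0.379), and -0.08 without Barn Swallow female 7. The difference between males minus that between females was 1.17 ± 0.33 (95% CI 0.50 to 1.85, edgeR adjusted p = 0.339), a test that 0.095% of genes passed. Blood cell markers, 4 lower in Tree Swallows and none higher of 5, summed to 332 to 1875 CPM in Tree Swallows (median 957) against 469 to 1742 CPM in Barn Swallows (median 971). Neuronal markers, 5 lower and 1 higher of 10, summed to 5193 to 6781 CPM (median 5689) against 5934 to 7794 CPM (median 6812). Over both sexes, as for these markers, 54.8% of all genes passed in either direction, and 25.9% were lower in Tree Swallows. Markers of telencephalon and subpallium were 4 higher and 1 lower of 11, and those of striatum 2 higher and none lower of 8. The part of these markers in the result was not tested.

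In the warblers and the sparrows NR3C1 did not pass the test in either sex in the fits with TMM and both sexes. Prothonotary Warbler females were at 41.9 to 67.1 CPM (median 53.6) and Yellow Warbler females at 48.4 to 94.3 (median 73.8). Males were at 27.8 to 82.8 CPM (median 49.0) in Prothonotary Warblers and 49.4 to 74.3 (median 54.8) in Yellow Warblers. The groups overlapped in both sexes, and the log2 difference was -0.31 ± 0.14 (95% CI -0.60 to -0.01, edgeR adjusted p = 0.0714), with -0.45 ± 0.20 in females (adjusted p = 0.0776) and -0.17 ± 0.20 in males (adjusted p = 0.544). This call depended on the scaling. With total counts in place of TMM the difference was -0.47 (edgeR adjusted p = 0.0145), a scaling that moved the median of all genes by -0.17 on the log2 scale, and relative to that median NR3C1 was at -0.31 with TMM and -0.29 with total counts. Females passed with total counts (-0.61, edgeR adjusted p = 0.0323) and when fitted without the males (-0.46, edgeR adjusted p = 0.0261).

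In the sparrows the values were spread alike. Eurasian Tree Sparrow females lay at 34.9 to 66.9 CPM (median 47.9) and House Sparrow females at 32.0 to 74.0 (median 45.3). Males lay at 38.4 to 77.8 CPM (median 52.8) in Eurasian Tree Sparrows and 41.2 to 82.2 (median 66.5) in House Sparrows. The females of House Sparrows enclosed those of Eurasian Tree Sparrows, and the ranges of the males overlapped over most of their length. The log2 difference was -0.14 ± 0.15 (95% CI -0.44 to 0.16, edgeR adjusted p = 0.474), with -0.05 ± 0.21 in females and -0.23 ± 0.21 in males. With total counts it was -0.32 (edgeR adjusted p = 0.0900), and -0.23 in females and -0.41 in males, a scaling that moved the median of all genes by -0.18. Relative to that median NR3C1 was at -0.11 with TMM and -0.12 with total counts.

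**Figure D2:**
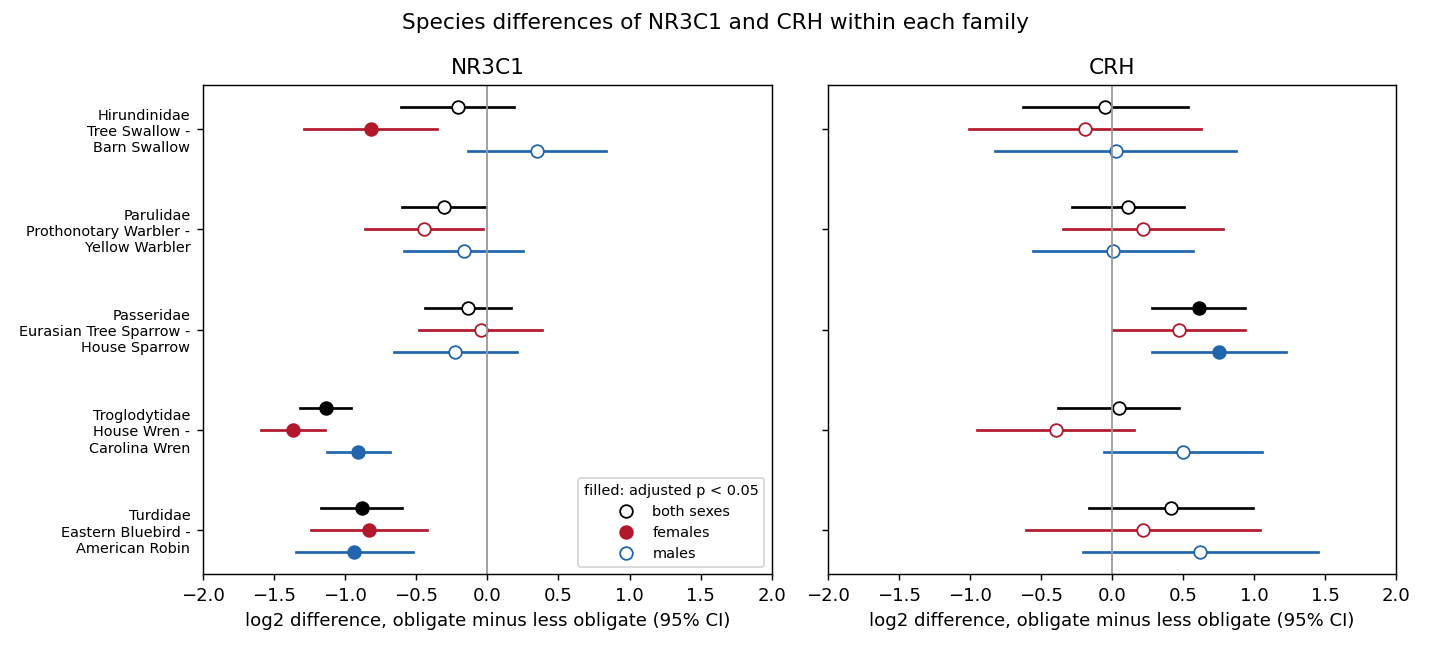
Log2 difference between the obligate and the less obligate species of each family for NR3C1 (left) and CRH (right), for both sexes together and each sex, with 95% confidence intervals from the edgeR fit and filled points where the adjusted p was under 0.05. NR3C1 lies farthest below 0 in Troglodytidae and Turdidae, at -1.14 and -0.88, and CRH passed only in Passeridae, at 0.61.

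Across families, the obligate nester had the lower NR3C1 past the threshold in 2 of 5 families, in 3 of 5 among females and in 2 of 5 among males. In the order Hirundinidae, Parulidae, Passeridae, Troglodytidae and Turdidae, the shares of all genes lower past the same threshold were 25.9%, 27.3%, 24.8%, 26.3% and 27.7% with both sexes. They were 24.4%, 22.1%, 20.2%, 23.6% and 21.5% among females, and 21.6%, 21.2%, 18.3%, 21.2% and 21.6% among males. The sign of the difference was negative in 5 of 5 families, as it was for 2.43% of all genes, in 5 of 5 among females (3.25% of genes) and in 4 of 5 among males, where 16.7% of genes were negative in at least 4 of 5. In sparrow females, at -0.05, the sign is within the error and turned when species means were used. The size of the species difference depended on the family for NR3C1 (edgeR F = 8.08, adjusted p = 1.29e-05), as it did for 89.5% of all genes.

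Since strategy is a property of a species, the 10 species means were also compared with family as a block. The mean log2 CPM of NR3C1 was 5.29 over the obligate and 5.83 over the less obligate species, a difference of -0.54 ± 0.22 (95% CI -1.05 to -0.03, limma adjusted p = 0.952). It was -0.66 ± 0.23 among females (95% CI -1.21 to -0.11, limma adjusted p = 0.949) and -0.42 ± 0.24 among males (95% CI -0.98 to 0.15, limma adjusted p = 0.950). In these comparisons 0% of genes passed the adjusted threshold with limma, and an unadjusted p under 0.05 was reached by 4.47% of genes over both sexes, 4.72% among females and 4.34% among males, which is near the 5% that the threshold itself allows. Leaving out the Troglodytidae gave -0.38 (limma adjusted p = 0.962) and leaving out the Turdidae -0.45 (limma adjusted p = 0.951).

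NR3C1 did not pass a comparison of the sexes in the edgeR fits that kept all birds. Over all birds, the log2 difference between males and females was -0.06 ± 0.07 (95% CI -0.20 to 0.08, edgeR adjusted p = 0.930), where 5.22% of genes passed. Within species, 0 of 10 passed by edgeR, and the estimate was below 0 in 5 of 10. The share of all genes that passed was 3.03% in Barn Swallows, 2.96% in Tree Swallows, 2.59% in Yellow Warblers, 3.02% in Prothonotary Warblers and 2.61% in House Sparrows. It was 2.33% in Eurasian Tree Sparrows, 0.371% in Carolina Wrens, 4.06% in House Wrens, 2.08% in American Robins and 2.09% in Eastern Bluebirds. The Carolina Wren fit kept female 1 and male 3, whose CHD1W contradicted their sex labels, so its share is not comparable with the others. The 3 differences farthest from 0 were -0.82 ± 0.24 in Barn Swallows (edgeR adjusted p = 0.0564), +0.37 ± 0.21 in House Sparrows (adjusted p = 0.579) and -0.36 ± 0.10 in Carolina Wrens (adjusted p = 0.120). Those of Barn Swallows and Carolina Wrens passed with DESeq2, at adjusted p = 0.0154 and 0.0474. In Carolina Wrens the value was -0.31 (edgeR adjusted p = 0.222) without the libraries that went against their sex label. In Barn Swallows it was -0.48 (edgeR adjusted p = 0.330) without female 7, the bird at 191 CPM, and -0.99 (edgeR adjusted p = 0.0227) without females 3 and 4. The dependence of the sex difference on obligate nesting was 0.32 ± 0.14 (95% CI 0.04 to 0.59, edgeR adjusted p = 0.776), a test that 0.0564% of genes passed. That fit took birds as the units, although nesting strategy is a property of a species. Its interval therefore does not measure how the sex difference varies between species.

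CRH was highest in the warblers. Prothonotary Warblers averaged 22.04 ± 9.59 CPM and Yellow Warblers 20.6 ± 5.72 CPM (n = 12 each), and the other 8 species lay between 6.56 ± 2.75 CPM in Tree Swallows (n = 13) and 11.5 ± 2.49 CPM in Eurasian Tree Sparrows (n = 12). Between those came House Wrens at 11.1 ± 3.59, Carolina Wrens at 11.1 ± 3.85, Eastern Bluebirds at 10.2 ± 6.89, American Robins at 7.65 ± 2.52, House Sparrows at 7.52 ± 2.23 and Barn Swallows at 6.94 ± 3.23 CPM. Of the 9 neighbouring pairs, only Yellow Warblers and Eurasian Tree Sparrows differed by more than the larger SD. Family accounted for 49.8% of the variance of log2 CRH and species within family for 3.45%, against 35.0% and 30.7% for NR3C1 and medians of 40.5% and 21.3% over all genes. Birds of 1 species and sex held 44.0% of the variance of CRH, 27.9% of that of NR3C1 and 26.0% in the median gene. CRH therefore varied by family and by bird, with little between the 2 species of a family, while NR3C1 varied about as much between the species of a family as between families.

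**Figure D3:**
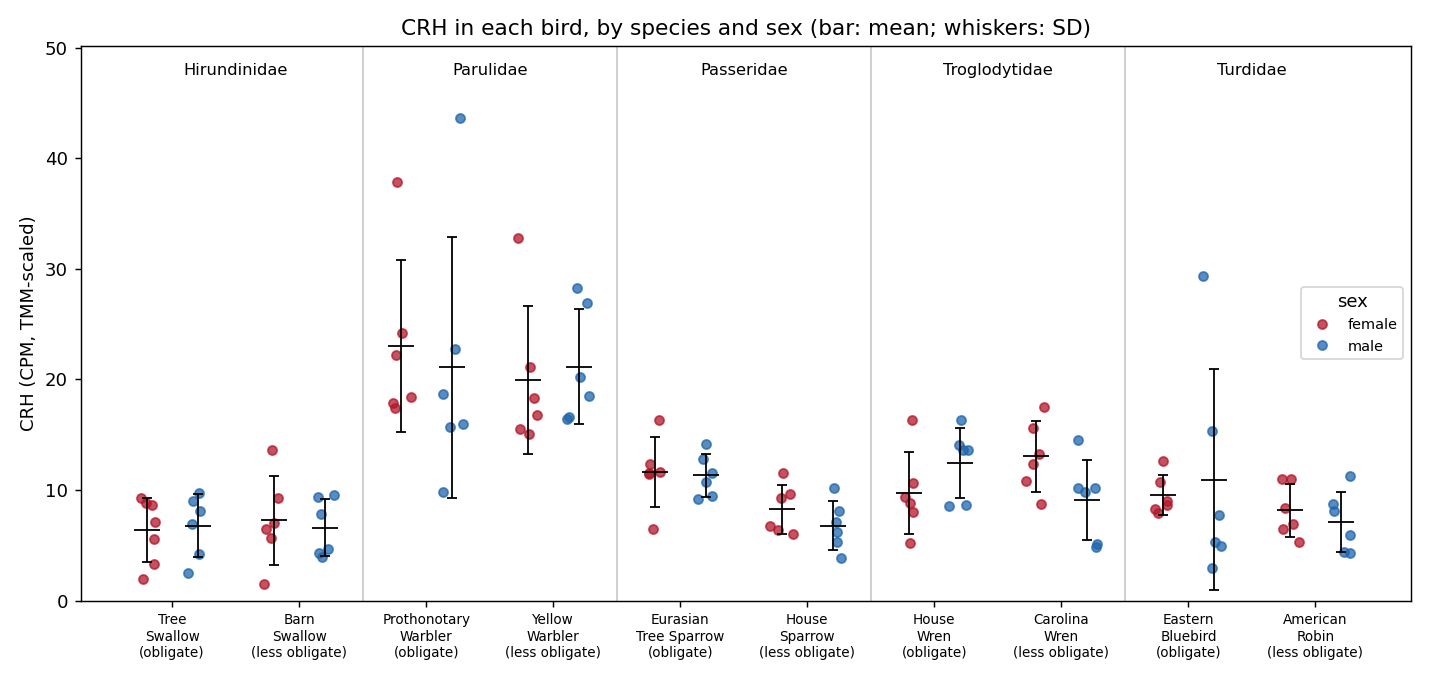
CRH in every bird (points, TMM-scaled CPM) by species and labelled sex, with the obligate nester of each family on the left, bars for the mean and whiskers for 1 SD. The 24 warblers lie between 9.81 and 43.6 CPM, and outside the warblers the highest bird is an Eastern Bluebird male at 29.4 CPM.

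In the sparrows CRH was higher in the obligate nester. Eurasian Tree Sparrow females ran from 6.47 to 16.4 CPM with a median of 11.6, and House Sparrow females from 6.01 to 11.5 with a median of 8.01. Males ran from 9.23 to 14.2 with a median of 11.1 in Eurasian Tree Sparrows and from 3.90 to 10.2 with a median of 6.66 in House Sparrows. Males of the 2 species overlapped between 9.23 and 10.2 CPM, and females over a wider range. The log2 difference was 0.61 ± 0.16 (95% CI 0.28 to 0.94, edgeR adjusted p = 0.00216), against 24.2% of all genes higher in Eurasian Tree Sparrows. In males it was 0.75 ± 0.23 (edgeR adjusted p = 0.00972, with 19.3% of genes higher), and in females 0.47 ± 0.23 (edgeR adjusted p = 0.103), or 0.59 (adjusted p = 0.0437 by edgeR) without House Sparrow female 3. The difference between males minus that between females was 0.28 ± 0.32 (edgeR adjusted p = 0.965). With total counts the difference in females was 0.31. Hypothalamic and preoptic markers, given here since CRH is known from the hypothalamus, were 1 higher and 1 lower of 7 tested and summed to a median of 125 CPM in Eurasian Tree Sparrows against a median of 120 CPM in House Sparrows. Neuronal markers, 3 lower and 1 higher of 10, summed to 5200 to 6989 CPM in Eurasian Tree Sparrows (median 6089) against 6362 to 8960 CPM (median 7447). Markers of endothelial and mural cells, 3 higher and none lower of 7, summed to 262 to 409 CPM (median 319) against 161 to 298 CPM (median 215). Over both sexes, as for these markers, 49% of all genes passed in either direction, and 24.8% were lower in Eurasian Tree Sparrows. Markers of astrocytes were 2 higher and none lower of 5, and those of telencephalon and subpallium 3 higher and 1 lower of 11. The part of these markers in the result was not tested.

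In the other 4 families CRH did not pass the test, which does not show that the species were alike. The log2 difference was -0.05 ± 0.28 in swallows (95% CI -0.63 to 0.53), 0.11 ± 0.19 in warblers (-0.28 to 0.51), 0.05 ± 0.21 in wrens (-0.38 to 0.48) and 0.42 ± 0.28 in the Turdidae (-0.16 to 1.00). The sign for warblers turned to -0.07 with total counts in place of TMM. Without Prothonotary Warbler female 6 it was 0.015, and without Yellow Warbler female 6 it was 0.20. Without Eastern Bluebird male 11, the bird at 29.4 CPM, the value in the Turdidae was 0.13 (edgeR adjusted p = 0.654). CRH in Tree Swallows was at 1.96 to 9.30 CPM in females (median 7.12) and 2.48 to 9.72 in males (median 7.55). In Barn Swallows it was at 1.55 to 13.6 in females (median 6.76) and 3.94 to 9.56 in males (median 6.26), so that the swallows overlapped throughout.

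The warblers overlapped as well. CRH in Prothonotary Warblers was at 17.4 to 37.9 CPM in females (median 20.3) and 9.81 to 43.6 in males (median 17.3). In Yellow Warblers it was at 15.1 to 32.8 in females (median 17.6) and 16.4 to 28.3 in males (median 19.4). The widest group of all was the Prothonotary males, whose lowest and highest birds enclosed every Yellow Warbler.

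In the wrens and the Turdidae the groups overlapped too. House Wrens were at 5.24 to 16.4 CPM in females (median 9.11) and 8.57 to 16.3 in males (median 13.6), and Carolina Wrens at 8.74 to 17.5 in females (median 12.8) and 4.81 to 14.6 in males (median 10.0). Eastern Bluebirds were at 7.91 to 12.6 in females (median 8.85) and 2.93 to 29.4 in males (median 6.51), and American Robins at 5.28 to 11.0 in females (median 7.65) and 4.28 to 11.3 in males (median 6.99). The log2 difference between the wrens was -0.40 ± 0.27 in females and 0.50 ± 0.27 in males, neither of which passed. The difference of these differences was 0.89 ± 0.38 (95% CI 0.11 to 1.68, edgeR adjusted p = 0.256), where 0.076% of genes passed. These wren values by sex included Carolina Wren female 1 and male 3, whose CHD1W contradicted their sex labels.

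By sex, CRH passed in 0 of 10 species with edgeR, and over all birds males and females differed by -0.06 ± 0.10 (95% CI -0.26 to 0.15, edgeR adjusted p = 0.970). Over the 10 species means, obligate and less obligate nesters differed by 0.17 ± 0.17 on the log2 scale (limma adjusted p = 0.952). The dependence of the species difference on the family did not pass for CRH (edgeR F = 1.58, adjusted p = 0.195).

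The relation of NR3C1 to CRH over birds was examined on deviations of log2 CPM from the mean of each species and sex, since species form separate clusters. Over all birds (61 females and 60 males) Pearson's r was -0.22 (p = 0.0519 in a permutation test of birds within species and sex) and Spearman's rho -0.27 (permutation p = 0.00691). The relation thus passed 0.05 by rank and not by Pearson's r. Among all other genes, 19.8% had an r with NR3C1 at or below that of CRH. Without the 2 birds farthest from the median of NR3C1, r was -0.23 (permutation p = 0.0285). Without the 6 libraries that stood apart or went against their label it was -0.32 (permutation p = 0.000810). With total counts in place of TMM it was -0.15 (permutation p = 0.169), and rho -0.17 (permutation p = 0.0746). Females gave r = -0.12 and rho = -0.24 (permutation p = 0.505 and 0.0874), males r = -0.31 and rho = -0.29 (permutation p = 0.0420 and 0.0390), and the difference between the sexes was not tested.

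**Figure D4:**
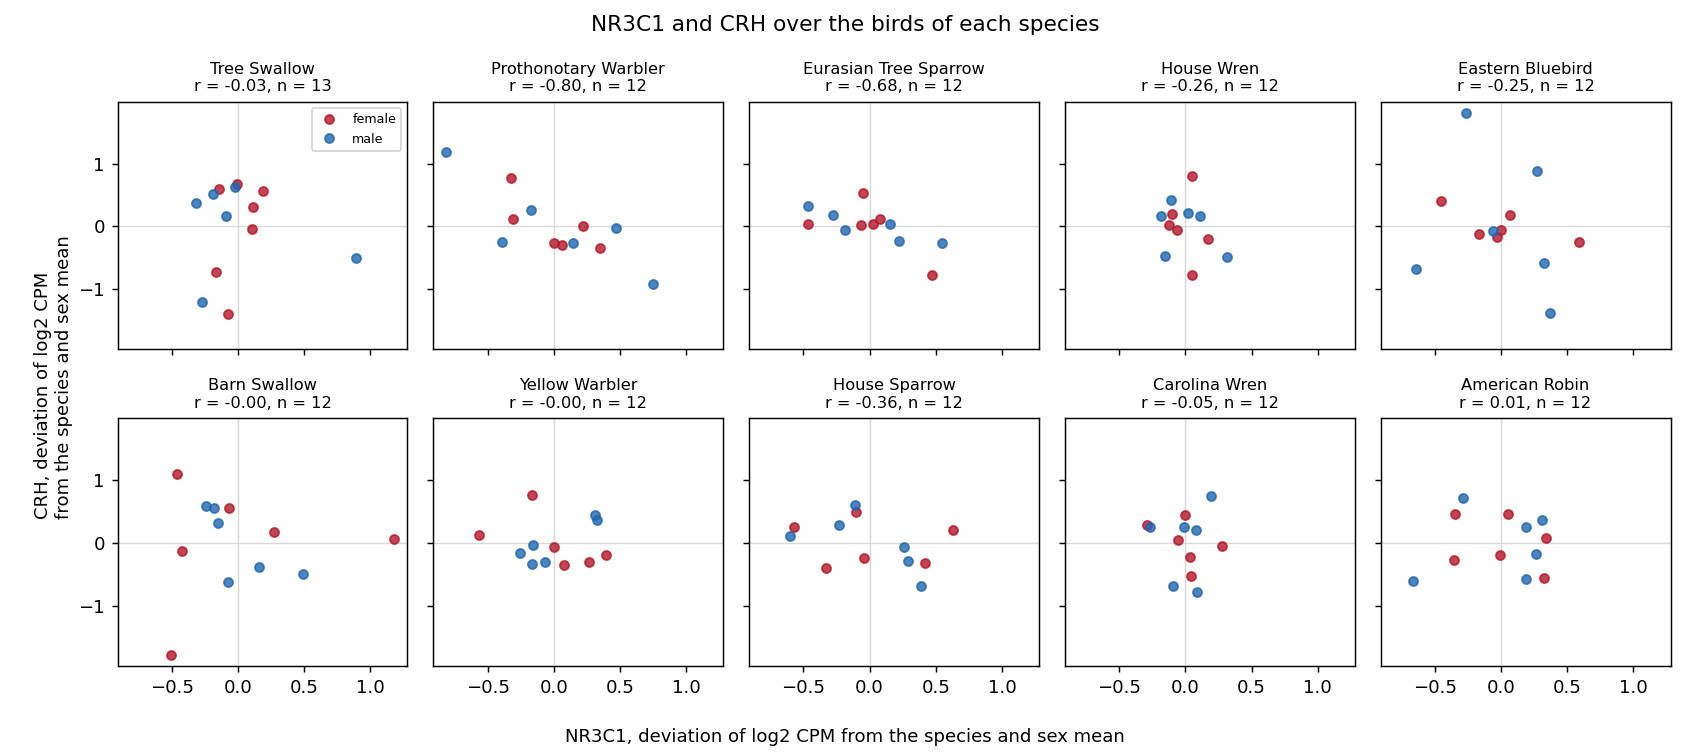
Deviation of log2 CPM of NR3C1 (horizontal) and CRH (vertical) from the mean of the bird's species and sex, 1 panel per species with Pearson's r, obligate nesters in the upper row. Prothonotary Warblers (r = -0.80) and Eurasian Tree Sparrows (r = -0.68) have the r farthest below 0, and r lies between -0.05 and 0.01 in 5 of 10 panels.

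By species r was below 0 in 9 of 10, and it lay between -0.05 and 0.01 in 5 of the 10. It was -0.80 in Prothonotary Warblers (n = 12, permutation p = 0.00656, adjusted over the 10 species 0.0656) and -0.68 in Eurasian Tree Sparrows (n = 12, permutation p = 0.0167, adjusted 0.0837), and no species passed after adjustment. Prothonotary Warbler male 7 had the lowest NR3C1 of its species (27.8 CPM) and the highest CRH (43.6 CPM), and male 2 had the highest NR3C1 (82.8 CPM) and the lowest CRH (9.81 CPM). Without these 2 birds, which lay farthest from the median of NR3C1, r was -0.45 (n = 10, permutation p = 0.188). Leaving them out also narrows the range of NR3C1, so the change in r cannot show whether the relation rests on them. In Eurasian Tree Sparrows r was -0.40 (permutation p = 0.277) without the 2 farthest. With the 2 farthest birds of each species left out, r was below 0 in 5 of 10 species and reached an unadjusted permutation p under 0.05 in 0. It then ran from -0.64 in Eastern Bluebirds (-0.25 with all birds) to 0.37 in Tree Swallows (-0.03 with all birds), and it was -0.60 in American Robins (0.01 with all birds) and -0.59 in House Sparrows (-0.36 with all birds). The values of single species thus moved when the 2 birds farthest in NR3C1 were left out. Without Prothonotary Warblers r over all other birds was -0.14 (permutation p = 0.255) and rho -0.21 (permutation p = 0.0420), and without Barn Swallows r was -0.27 (permutation p = 0.0122). Over the 10 species means r was -0.02 and rho -0.38 (permutation p = 0.953 and 0.276), or -0.12 and -0.45 without the 2 farthest species. These permutations shuffled species freely although species share families, so the values over species means are descriptions.

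Some measures of the libraries moved with NR3C1, with CRH or with both. The first principal component of the deviations of all other genes held 19.7% of their variance, and its r was 0.31 with NR3C1 and -0.57 with CRH. An r at least as far from 0 was found for 53.5% of genes in the case of NR3C1 and for 22.6% in that of CRH. Adjusted for it, the r between the genes was -0.06 (permutation p = 0.628) and rho -0.12 (permutation p = 0.214). The deviation of the log2 total count had r = 0.28 with NR3C1 and -0.05 with CRH, and adjusting for it left r at -0.22 (permutation p = 0.0682). Over the 10 marker lists, the summed level had r with NR3C1 from -0.37 (hypothalamus and preoptic area) to 0.49 (astrocytes), and with CRH from -0.49 (neurons) to 0.44 (hypothalamus and preoptic area). With NR3C1, r was also -0.31 for telencephalon and subpallium, -0.28 for blood cells, 0.27 for endothelial and mural cells and 0.25 for neurons. With CRH it was 0.29 for blood cells, and the other 7 lists lay between -0.18 and 0.17. Members of a list did not all go with its sum. NEFL, a neurofilament of the neuronal list picked after its values were seen, had r = -0.39 with NR3C1 and 0.40 with CRH. Among the hypothalamic and preoptic markers, r with CRH was 0.44 for GHRH, 0.43 for HCRT and 0.21 for LHX9. It was 0.09 for FEZF1, 0.014 for SIX6, 0.008 for PMCH and 0.007 for HDC. The part of tissue composition in the relation was not tested.

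The genes most like each member were found by the r of these deviations over the 61 females and 60 males, among 9190 genes with a symbol and at least 5 CPM. The correlations share libraries and depth, and are descriptions. For NR3C1 they were NCOA6 (r = 0.77), a coactivator of nuclear receptors, and NRIP1 (0.77), a corepressor of nuclear receptors. DAAM1 (0.76), an actin regulator, TENM1 (0.75), a teneurin of neuronal surfaces, and GABRA4 (0.75), a GABA receptor subunit, followed. The middle 90% of genes lay between -0.40 and 0.53. NCOA6, NRIP1, DAAM1 and GABRA4 were positive in 10 of 10 species and TENM1 in 9. Lowest were NME2 (-0.68), a nucleoside diphosphate kinase, PPIA (-0.67), the abundant prolyl isomerase cyclophilin A, and IMPDH2 (-0.67), an enzyme of guanine nucleotide synthesis. Over the 10 species means the highest were CCDC80 (0.91), GSS (0.89), which makes glutathione, and ACSL3 (0.88), a fatty acid activating enzyme.

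For CRH the highest over birds were TBCB (r = 0.66), a tubulin folding cofactor, LAMTOR5 (0.65), a subunit of the lysosomal Ragulator complex, IGFBP5 (0.64), a binding protein of insulin-like growth factors, ATRAID (0.64) and USP21 (0.62), a deubiquitinase. All were positive in 10 of 10 species. Lowest were GID8 (-0.66), CNOT1 (-0.63), the scaffold of the deadenylation complex, and RBSN (-0.60), an endosomal fusion factor. The middle 90% of genes lay between -0.41 and 0.48. Over species means the highest were HSPA8 (0.95), a constitutive heat shock protein, FBXO34 (0.93) and FBXW9 (0.93).

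Of 62 other genes listed for stress peptides, their receptors, corticosteroid receptors and steroid metabolism, receptor chaperones, co-regulators and glucocorticoid targets, 44 were present. In the Hirundinidae 12 were higher and 9 lower in the obligate nester of 42 tested, which is 50% called against 54.8% of all genes. In the Parulidae it was 8 and 12 of 43 (46.5% against 55.4%), in the Passeridae 8 and 10 of 42 (42.9% against 49%), in the Troglodytidae 15 and 9 of 44 (54.5% against 56.9%) and in the Turdidae 15 and 14 of 43 (67.4% against 56.3%). The median log2 difference of the listed genes was between -0.09 and 0.12 in the 5 families, and that of all genes between -0.02 and 0.04. The share called was above that of all genes in the Turdidae and below it in the other 4 families, and these gaps were not tested.

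Receptors moved by family, in fits of both sexes where 49% to 56.9% of all genes passed per family in either direction. CRHR1, the main receptor of CRH, passed as higher in 4 obligate nesters and lower in the fifth, the Eurasian Tree Sparrow. Eastern Bluebirds had 27.7 ± 13.8 CPM against 6.64 ± 2.77 in American Robins (log2 difference 2.06 ± 0.24, edgeR adjusted p = 3.50e-08), and Eurasian Tree Sparrows 6.44 ± 1.30 against 13.9 ± 4.12 in House Sparrows (-1.12 ± 0.16, edgeR adjusted p = 9.70e-07). Eurasian Tree Sparrows thus had the higher CRH and the lower CRHR1. CRHR2, which binds urocortins with high affinity, was lower in Tree Swallows (-0.75 ± 0.12) and Eastern Bluebirds (-0.54 ± 0.15) and passed in no other family. NR3C2 was higher in Tree Swallows (0.51 ± 0.09) and in House Wrens, at 110 ± 12.3 against 99.97 ± 14.9 CPM (0.18 ± 0.07, edgeR adjusted p = 0.0347). In wrens, then, NR3C1 was lower in the obligate nester and NR3C2 slightly higher, while in the Turdidae NR3C2 was at -0.16 ± 0.07 (edgeR adjusted p = 0.0572). ADCYAP1, the peptide PACAP, was higher in Eastern Bluebirds only (0.68 ± 0.21).

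**Figure D5:**
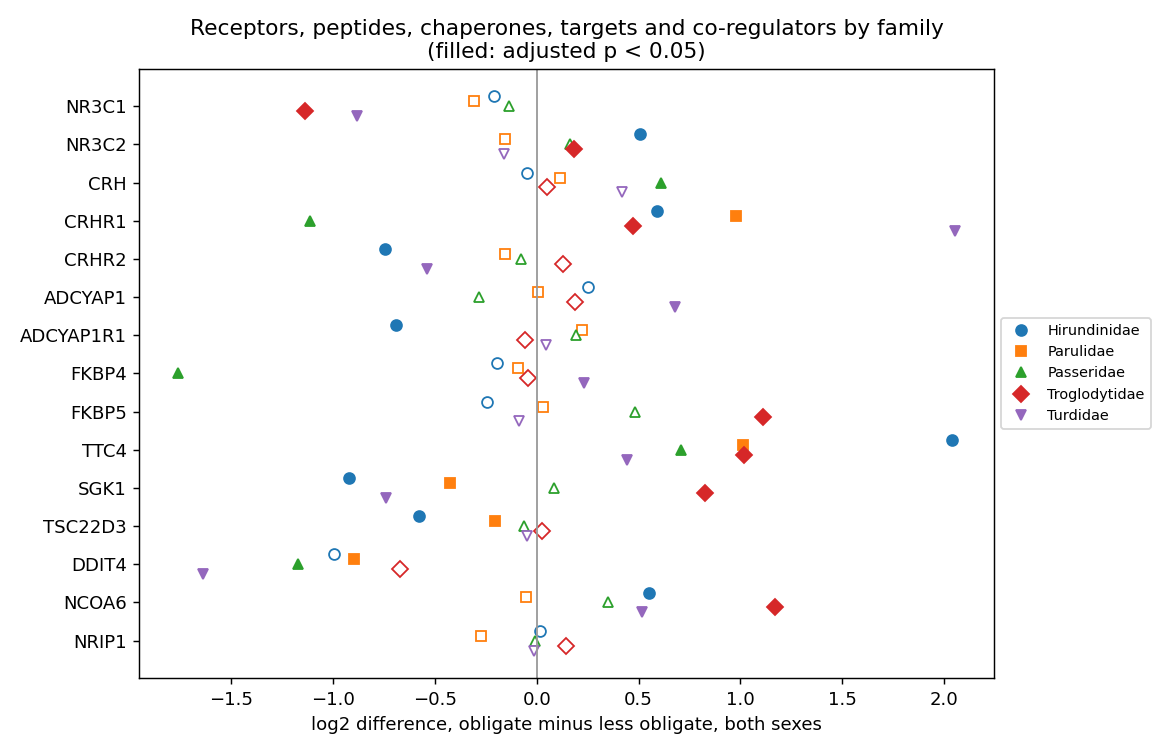
Log2 difference between obligate and less obligate species (both sexes) for NR3C1, CRH and 13 further genes of the lists, 1 symbol per family, filled where the edgeR adjusted p was under 0.05. TTC4 lies above 0 in 5 of 5 families, and CRHR1 runs from -1.12 in Passeridae to 2.06 in Turdidae.

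Among chaperones and targets, FKBP5, a receptor co-chaperone that glucocorticoids induce, was higher in House Wrens, at 85.3 ± 40.8 against 39.6 ± 13.6 CPM in Carolina Wrens (1.11 ± 0.25, edgeR adjusted p = 0.000468), and passed in no other family. SGK1, a kinase induced by corticosteroids, was also higher in House Wrens, at 123 ± 23.2 against 71.3 ± 12.1 CPM (0.83 ± 0.10). It was lower in the obligate nesters Tree Swallow (-0.92 ± 0.11), Prothonotary Warbler (-0.43 ± 0.09) and Eastern Bluebird (-0.74 ± 0.12). Beside such calls of single genes, here and below, 49% to 56.9% of all genes passed per family in either direction. The glucocorticoid targets as a list did not move in 1 direction in wrens, with 4 higher, 2 lower and 6 not called of 12 tested. This is 50% called, against 56.9% of all genes. The other two that were higher in House Wrens were BCL6 (0.74 ± 0.11), a transcriptional repressor, and PDK4 (1.17 ± 0.23), a kinase that inhibits pyruvate dehydrogenase. Lower were DUSP1 (-0.73 ± 0.11), a phosphatase of MAP kinases, and CEBPD (-0.94 ± 0.31), a transcription factor at 1.12 against 2.17 CPM. These 4 genes were named after their values were seen. In the Parulidae, with both sexes in the fit, the target list had 0 higher and 7 lower of 11 tested, where 27.3% of all genes were lower. Its median log2 difference there was -0.43, against -0.002 for all genes. By sex, 3 of 11 were lower and 0 higher in warbler females, where 22.1% of all genes were lower. Warbler males also had 3 lower and 0 higher of 11, where 21.2% of all genes were lower. Higher and lower were 3 and 3 of 11 in the Hirundinidae (54.5% called against 54.8% of all genes). They were 3 and 1 of 10 in the Passeridae (40% against 49%) and 2 and 4 of 11 in the Turdidae (54.5% against 56.3%). The gaps between the list and all genes were not tested. TSC22D3, the glucocorticoid-induced leucine zipper, was lower in Tree Swallows (-0.58 ± 0.15) and Prothonotary Warblers (-0.21 ± 0.07), and at 0.02 ± 0.09 in House Wrens. FKBP4, the co-chaperone that links the receptor to transport, was lower in Eurasian Tree Sparrows, at 177 ± 44.1 against 598 ± 114 CPM (-1.76 ± 0.13), and higher in Eastern Bluebirds (0.23 ± 0.10). TTC4, an HSP90 co-chaperone, was the only one of the 41 listed genes tested in every family that passed in 1 direction in all 5, from 0.44 ± 0.13 in the Turdidae to 2.04 ± 0.12 in the Hirundinidae, and 0.579% of all genes did so. NCOA6 passed as higher in the obligate nester in 3 families, up to 1.17 ± 0.07 in House Wrens, and NRIP1 in none. In those 3 families 54.8% to 56.9% of all genes passed in either direction.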

How the data were processed

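The authors deposited 1 table of raw counts of reads per gene, with whole numbers for 10672 genes, of which 911 carry no symbol. Per the labels' protocols, RNA was extracted with phenol and chloroform and made into stranded mRNA libraries. The submitters' processing notes name Trimmomatic 0.36 and fastp 0.20.1, then Bowtie2 2.4.4, SAMtools 1.10 and, from Subread 2.02z, featureCounts. The header of the gene column speaks of zebra finch proteins, and the genome used is not given in the sources. All columns, of 61 females and 60 males, were matched to labelled birds.

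Analyses were run in R 4.3.3 (edgeR 4.0.16, limma 3.58.1, DESeq2 1.42.0), and figures drawn in Python 3.11.15 (matplotlib 3.10.9). Within a family, edgeR's quasi-likelihood test set the 2 species against each other on counts after filterByExpr and TMM scaling, with sex as a covariate, and by sex in a fit with 4 groups. Species means of log2 CPM (prior count 2) were tested with limma and family as a block. P-values are two-sided, and those of edgeR, DESeq2 and limma are adjusted over all genes tested by the Benjamini-Hochberg method. Those of edgeR and DESeq2 measure the spread between birds of a group. Those of limma measure how the difference between species means varies between families. Permutation p-values of single species were adjusted over the species, and the other permutation p-values were not adjusted. Correlations over birds used 100000 permutations within species and sex, with 1e-05 as the smallest p they can give. Those over species means used as many permutations that shuffled the species freely across families. Scripts were tested on simulated data. DESeq2, total counts, no filter, leaving out mitochondrial genes, single birds, libraries or families, and a block were tried as alternatives.

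The genes, lists and tests were chosen with earlier results of these data known. Named genes are the 2 members, 8 of 12 pathway genes named without regard to values (CRHBP, UCN3, HSD11B1 and HSD11B2 were not analysed here), listed genes past the threshold in 1 direction in all 5 families, and those most like each member (5 highest and 3 lowest r over birds, 3 highest over species means). BCL6, PDK4, DUSP1, CEBPD and NEFL were named after their values were seen. The figure of listed genes also shows ADCYAP1R1 and DDIT4, which meet none of these criteria. All present markers of the hypothalamic and preoptic list were named as well.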

Additional observations from a re-analysis of the deposited data

Results flagged for a closer look

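In 4 of the 40 groups of 1 gene, species and sex, the highest bird lay farther from the rest than the 95% limit of Dixon's test allows. For normally distributed values about 1 in 20, or 2, would do so. The limit was applied to CPM and not to log2 CPM, so that rate need not hold here and no excess is read from the 4. NR3C1 was at 191 CPM in Barn Swallow female 7, with the next bird at 102 CPM and the lowest at 59.0. NR3C1 was at 119 CPM in Tree Swallow male 5, with the next at 63.1 and the lowest at 51.4. CRH was at 37.9 CPM in Prothonotary Warbler female 6, with the next at 24.2, and at 32.8 CPM in Yellow Warbler female 6, with the next at 21.2. The median correlation of these 4 libraries with their own group was 0.928 to 0.977.

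The difference of NR3C1 between obligate and less obligate species varied by family (edgeR F test over all birds, adjusted p = 1.29e-05), from -0.14 in the Passeridae to -1.14 in the Troglodytidae, and 89.5% of all genes passed the same test.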

How the results depend on the processing

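Of 496 values under alternatives, 15 passed the threshold only under the alternative and 2 only in the original setting. Another 13 turned in sign, all of these from and to values that did not pass. The others kept their direction and side of the threshold. For Pearson's r of NR3C1 with CRH, the threshold in these counts was an unadjusted permutation p under 0.05. The NR3C1 differences of wrens and of the Turdidae passed under every alternative run. With DESeq2, NR3C1 in males against females gave -0.83 (adjusted p = 0.0154) in Barn Swallows and -0.35 (0.0474) in Carolina Wrens, and the same comparison of CRH in Eurasian Tree Sparrows turned to -0.037. Without the 6 libraries the first was -0.99, CRH in sparrow females 0.59 (adjusted p = 0.0437), and NR3C1 in male against female Eastern Bluebirds turned to 0.017. Without Tree Swallow male 5 NR3C1 in Barn Swallow males against females was -0.82 (adjusted p = 0.0220). Without Prothonotary Warbler female 6, CRH in that species' males against females turned to 0.058. Without Eastern Bluebird male 11, CRH in Turdidae was 0.13, and it turned to -0.39 in that species' males against females and to -0.18 in the difference between the males minus that between the females. Over the single birds left out, NR3C1 in Barn Swallow males against females ran from -0.82 to -0.48 and CRH in Prothonotary Warbler males against females from -0.13 to 0.058. These birds were chosen after their values were seen. With total counts NR3C1 was -0.47 in warblers and -0.61 (adjusted p = 0.0323) in warbler females, and CRH turned to -0.068 in warblers and -0.19 in warbler males. Total counts moved the median of all genes by -0.17 in warblers and -0.18 in sparrows, and by at most 0.02 in either direction in the other families with both sexes in the fit, so that scaling limits differences of this size. Fitted on females alone, NR3C1 in warblers was -0.46 (adjusted p = 0.0261).

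Leaving out 1 family at a time, the difference over species means ran from -0.65 to -0.38 for NR3C1 and from 0.06 to 0.23 for CRH, and among females from -0.83 to -0.49 and from -0.029 (without the Passeridae) to 0.20. The relation of NR3C1 with CRH was -0.32 without the 6 libraries, -0.23 without the 2 farthest birds, -0.31 in males, and -0.27 to -0.14 with 1 species left out.

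Bird numbers repeat across species, but same-numbered birds did not deviate together: r over 36 pairs ran from -0.55 to 0.40 with a median of -0.04, and 10 were over 0.1. With bird number as a block, CRH in sparrows was 0.59 (adjusted p = 0.0642) and 0.86 in males (0.101), CRH turned to 0.0022 in swallows, -0.10 in warblers, -0.38 in warbler males and -0.014 in wrens, NR3C1 turned to 0.059 in sparrow females, and genes called in the Turdidae were 1862 in place of 5929. Where a sex shared fewer than 2 numbers between species, no such value could be had. Under the block, only birds whose number was shared by both species within a sex inform the species difference. In the Turdidae these were males 9 and 11 of each species and no females. The block values therefore rest on fewer birds and fewer degrees of freedom, and any other cause of these changes was not tested. CRH, at 9 to 210 counts per bird, limits what could be detected more than NR3C1 does.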
